A study of Mus musculus with 4 samples.

Results

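Long weakly enriched blocks are stretches of the mouse autosomes over which immunoprecipitation of methylated DNA recovered little DNA at every probe. On each array, M was log2 of the immunoprecipitated over the reference signal at a probe, less the median of that array. A block was 15 or more consecutive probes, with starts at most 500 bp apart, at which the mean M of the 2 control arrays was below -0.5 at every probe. There were 371 such blocks, which held 6492 of 398367 autosomal probes (1.63%). The blocks were chosen by the M of the control arrays, so control M is given as a description, and the food restricted arrays are the measurement that the choice did not use.

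The DNA came from livers of C57BL/6J fetuses collected on gestation day 18. The dams of the food restricted group received 50% of the chow eaten by the control dams from gestation day 10 to 17, and the control dams were fed freely. Each group was 1 pool described as N = 6, and each pool was hybridised against its own total genomic DNA on 2 arrays with the dyes exchanged, 1 on each of 2 slides. The 2 arrays of a pool are repeats of 1 sample, so no test was possible between the pools and the values of both slides are given. Array position on the slide went with the pool, so position and pool cannot be told apart. The deposited value table disagrees with the scanner files on 2 of the 4 arrays. Its column for the food restricted array of slide 1 holds the scanner values of the control array of slide 2, and the reverse. Against the scanner file of its own title that column correlated at r = -0.91. The scanner files were used. The counts of differences between the pools, and the flanks described for theirs, are also given with the assignment of the value table, in which slide and dye go with the pool. Fetal sex was not stated in the labels, and a pool of whole liver holds hepatocytes together with the blood-forming cells that fill the liver at this age, which cannot be told apart here.

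In this assay an antibody recovers DNA fragments that carry 5-methylcytosine, which in mammals lies almost entirely at CpG sites. Recovery is weak in CpG islands, the CpG-dense stretches at many promoters that are usually kept free of methylation. It is also weak in CpG-poor DNA, where few sites exist to be recognised even when each is methylated. A low ratio alone does not separate these situations. Probes are named in the files by their position on build mm9, and an annotation or sequence of that build was not used here, so blocks are given by position without genes or bases.

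The blocks spanned a median of 3141 bp, from 2138 to 6648 bp, with a median of 17 probes. Of the 371 blocks, 98 had exactly 15 probes, 68 had 20 or more, and 2 had 30 or more. The median start spacing inside a block was 174 bp, against 180.5 bp over autosomal stretches of 15 consecutive probes, of which 10778 could be cut from the same tiling. The length was limited by the array as well as by the signal. A block can lie only in an unbroken tiled run of at least 15 probes, and 9958 of 43657 runs were that long. Blocks lay in 370 of these 9958 runs (3.72%), 1 of which held 2 blocks, and 49 of the 371 blocks (13.2%) filled their run from end to end.

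The longest block, on chromosome 5 from 120281235 to 120287882, also had the most probes, 36 over 6648 bp. Its median M was -1.29 and -1.50 on the food restricted arrays of slides 1 and 2, against -1.74 and -1.79 on the control arrays. In the food restricted pool 34 and 35 of its 36 probes were below -0.5 on the single arrays, and its tiled run ended where the block ended on both sides. The second, on chromosome 16 from 98174670 to 98180340 (32 probes), had a median M of -0.98 and -1.27 on the food restricted arrays and -1.57 and -1.59 on the control arrays. The 6 probes before it were enriched on every array, with medians of 1.09 and 1.72 in the food restricted pool and 1.59 and 1.68 in the control pool. The change from high to low was thus present in both pools at the same place.

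**Figure D1:**
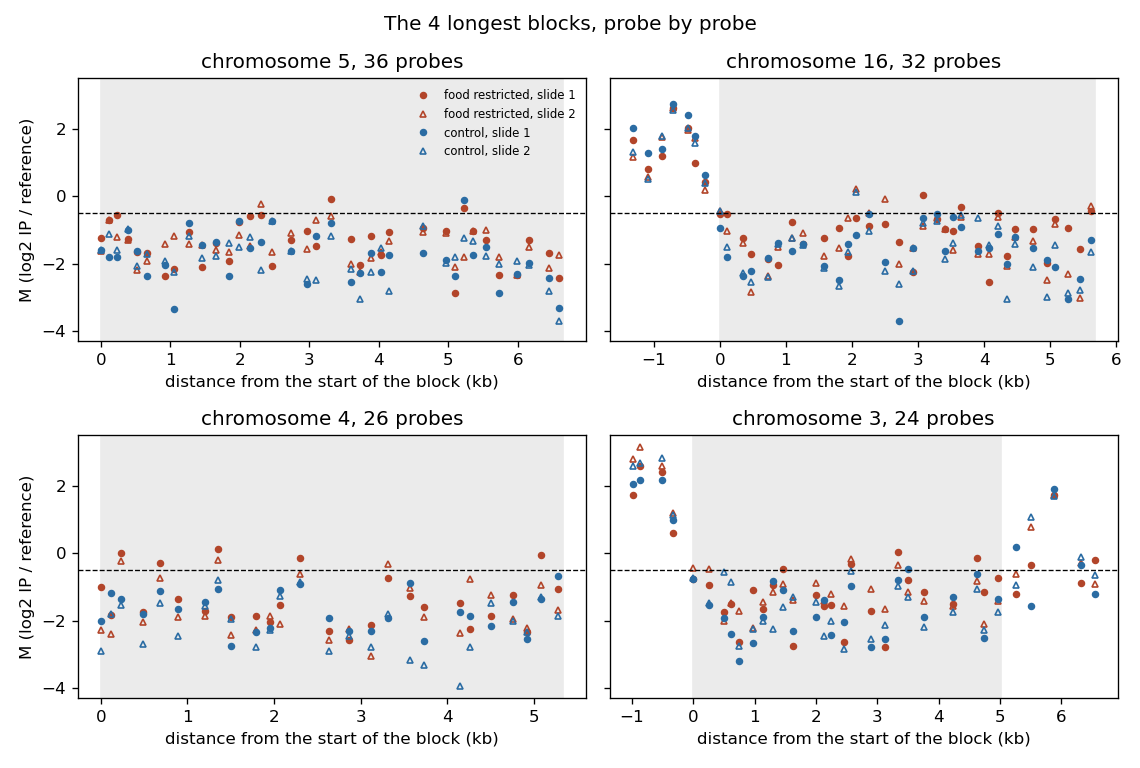
M at each probe of the 4 longest blocks (shaded) and up to 8 probes of the same tiled run on either side, against the distance from the start of the block in kb. Red marks the food restricted arrays and blue the control arrays, with filled circles for slide 1, open triangles for slide 2 and a dashed line at -0.5. The blocks of chromosomes 5 and 4 end with their tiling, and those of chromosomes 16 and 3 begin beside enriched probes on all 4 arrays.

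The third block by length lay on chromosome 4 from 94716949 to 94722281 (26 probes) and had a median M of -1.57 and -1.90 on the food restricted arrays, against -1.77 and -2.15 on the control arrays. The fourth, on chromosome 3 from 89852406 to 89857431 (24 probes), had -1.19 and -1.39 against -1.90 and -1.75. In the 4 probes before it, M was 2.08 and 2.69 in the food restricted pool and 2.10 and 2.62 in the control pool. A second long block lay close to the longest one, on chromosome 5 from 120118018 to 120123020 (26 probes), with a median M of -1.32 and -1.45 in the food restricted pool and -1.51 and -1.65 in the control pool.

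The other 5 among the 10 longest were below -1.2 on all 4 arrays. Of these, 4 were on chromosome 3 from 88098882 to 88103858, with a median M of -1.35 and -1.64 in the food restricted pool and -1.58 and -2.06 in the control pool, on chromosome 5 from 67489233 to 67493880, on chromosome 19 from 12747434 to 12752016, and on chromosome 3 from 159258646 to 159263213. All probes of the last 3 stayed below -0.5 in the mean of the food restricted arrays. The remaining block, on chromosome 1 from 140738660 to 140743588 (25 probes), had a median M of -1.25 and -1.31 in the food restricted pool and -1.92 and -1.61 in the control pool, and its border is described further on.

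The low state of the blocks was present in the food restricted pool as well. The median M over blocks was -1.39 and -1.40 on the food restricted arrays, against -1.65 and -1.74 on the control arrays that chose the blocks. On the food restricted arrays the block medians ran from -2.16 to -0.60 on slide 1 and from -2.06 to -0.81 on slide 2, so all 371 blocks were below -0.5 on both. Below -1 on both food restricted arrays were 335 of 371 blocks (90.3%) and 1379 of 10778 autosomal stretches (12.8%), and the median over stretches was -0.03 and -0.04. At the level of single probes, 5927 of 6492 block probes (91.3%) had a food restricted mean below -0.5, against 153783 of 398367 autosomal probes (38.6%). In 69 blocks (18.6%) every probe did.

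**Figure D2:**
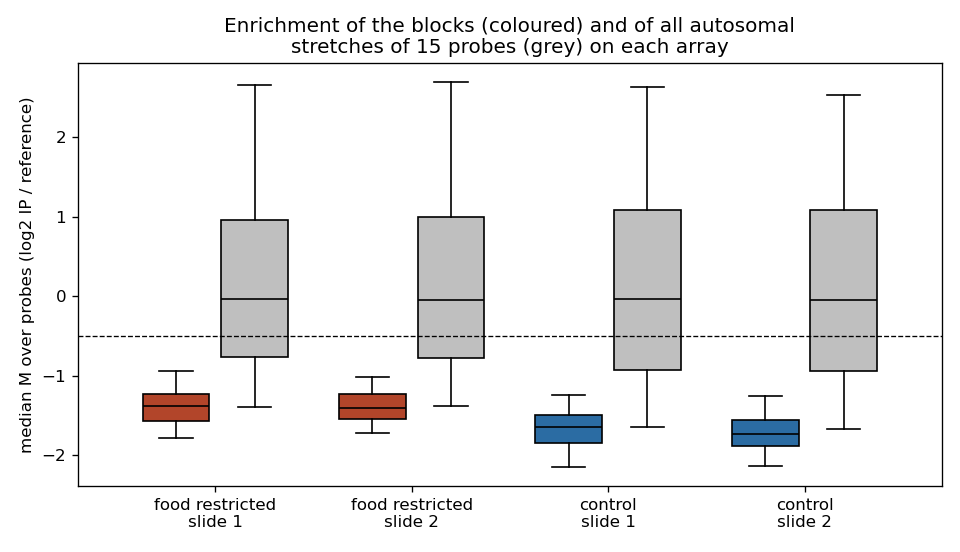
Median M over the probes of each of the 371 blocks (coloured boxes) and of each of 10778 autosomal stretches of 15 consecutive probes (grey boxes) on the 4 arrays. Boxes show quartiles and median, whiskers the 5th to 95th percentile, and the dashed line the value of -0.5 that was applied to single probes of the control arrays. The food restricted boxes of the blocks, with medians of -1.39 and -1.40, lie below those of the stretches and above those of the control arrays.

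When the same rule was applied to the mean of the food restricted arrays, 167 blocks were found. Of these 112 (67.1%) shared a probe with a control block, and 112 of the 371 control blocks (30.2%) shared a probe with a food restricted one. Both ends were identical in 57 blocks. The shared probes were 29.2% of control block probes and 66.0% of food restricted block probes, although 91.3% of control block probes were below -0.5 in the food restricted mean. A single probe at or above -0.5 ends a block, so these overlaps count unbroken runs and not low probes. Of runs just short of the rule there were 120 with 14 low probes, with a median M of -1.37 in the food restricted pool and -1.67 in the control pool. The 98 blocks with 15 probes had -1.35 and -1.67. Within blocks, the control probe nearest the threshold had a mean M of -0.501, and the lowest first probe outside an end had -0.497.

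Blocks varied little in M among themselves but widely in brightness. The 5th and 95th percentiles of the food restricted M over blocks were -1.73 and -1.01, and length and M correlated at r = -0.09 across the 371 blocks. The 5 lowest had a mean food restricted M between -1.90 and -1.83, and the first 2 of them had under 50% of immunoprecipitated values well above background in both pools. They included the block on chromosome 17 from 36682002 to 36684906, at -2.16 and -1.65 against -2.28 and -2.02 in the control pool, that on chromosome 2 from 74578843 to 74582634, at -1.80 and -1.95 against -2.16 and -2.03, and that on chromosome 5 from 75468098 to 75471824, at -2.00 and -1.75 against -1.72 and -1.99. The shortest block of all, 2138 bp on chromosome 7 from 100022759 to 100024896, was also among them, at -1.86 and -1.89 in the food restricted pool and -1.82 and -2.22 in the control pool. The fifth was the long block from 67489233 on chromosome 5, at -1.87 and -1.79 against -2.09 and -1.87.

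At the other end of the order, the block on chromosome 4 from 118778401 to 118781393 had the highest food restricted M, -0.77 and -0.89, against -1.16 and -1.23 in the control pool. The next were on chromosome 15 from 81845361 to 81848396, at -0.85 and -0.84 against -1.22 and -1.16, and on chromosome 10 from 78995569 to 78999056, at -0.88 and -0.84 against -1.43 and -1.39. A block on chromosome 9 from 35072004 to 35075425, at -0.94 and -0.81 against -1.25 and -1.03, had 61.1% of its probes below -0.5 in the food restricted mean, the lowest share of any block. A block on chromosome 3 from 89017100 to 89019963 was uneven between slides, with -0.60 and -1.16 against -1.20 and -1.37.

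The reference signal, which measures total DNA at a probe and not its methylation, separated the blocks more than M did. Centred on the array median, it ran over blocks from -1.39 to 1.65 in the food restricted pool (log2), and the share of immunoprecipitated values that the scanner software called well above background ran from 5% to 100%. The 155 blocks with a median probe length of 60 bp, the longest on this array, had a median reference signal of -0.27 and 47.4% of immunoprecipitated values well above background. The 49 blocks with a median probe length of 50 bp or less had 0.92 and 85.3%. Their food restricted M was nevertheless alike, at a median of -1.39 for the long probes and -1.36 for the short ones. Across the 371 blocks probe length and reference signal correlated at r = -0.76, as they did across stretches (r = -0.75). These correlations are over regions of the same arrays, which share probes' base composition and labelling.

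Blocks were spread over both kinds of probe in about the proportion of the array. Blocks with 60 bp probes made up 41.8% of blocks and 42.9% of stretches, and blocks with probes of 50 bp or less made up 13.2% and 17.1%. Of single block probes 47.1% were 60 bp long, against 46.8% of autosomal probes.

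**Figure D3:**
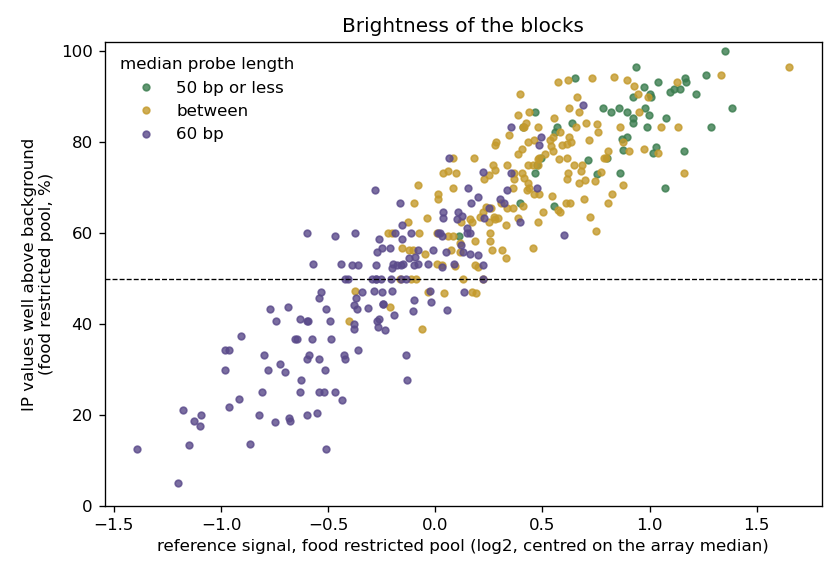
Share of immunoprecipitated values well above background in the food restricted pool (percent, over probes and both arrays) against the median reference signal of the block (log2, centred), for the 371 blocks, coloured by median probe length. The dashed line at 50% separates blocks treated as dim. Blocks with 60 bp probes fill the dim end and those with probes of 50 bp or less the bright end, with medians of 47.4% and 85.3%.

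Dimness limits what a difference can say. Over block probes, 62.3% and 61.9% of immunoprecipitated values were well above background in the food restricted pool, against 42.8% and 40.8% in the control pool. Over all probes of the array the shares were 79.9% and 80.6% against 72.2% and 72.0%. A block was treated as dim in a pool when under 50% of its immunoprecipitated values were well above background. In this sense 86 blocks (23.2%) were dim in both pools, 143 (38.5%) in the control pool alone and 142 (38.3%) in neither. No block was dim in the food restricted pool alone. The reference channel was well above background at 98.2% or more of block probes on every array, and no block probe was saturated.

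The borders of the blocks were examined next. Of the 742 ends, 435 (58.6%) were set by the threshold, with a further tiled probe beyond, and 307 (41.4%) by a gap in the tiling. At threshold ends, the median food restricted M was -1.46 at the fifth probe inside and -1.16 at the last probe inside. At the first probe outside it was 0.08, with 0.12 and 0.08 on the arrays. The rule requires a control mean of -0.5 or more at this probe, so the step in the control pool is fixed in advance. Among these 435 first probes, 182 (41.8%) were above 0 on both food restricted arrays, 26 (5.98%) were above 1 on both, and 72 (16.6%) were below -0.5 in the food restricted mean. At gap ends M showed little change towards the edge, with a median of -1.34 at the last probe.

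**Figure D4:**
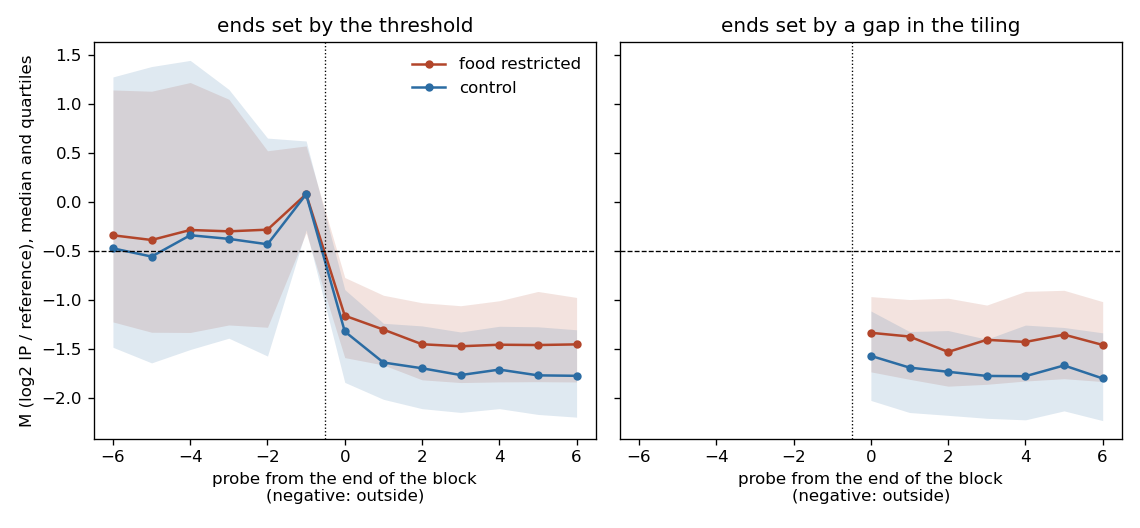
Median M (points) and quartiles (bands) by probe position from the end of a block, with 0 for the outermost probe inside and negative numbers outside, for the food restricted pool (red) and the control pool (blue). The left panel holds the 435 ends set by the threshold and the right panel the 307 ends set by a gap. Both pools step to a median of 0.08 at the first probe outside and fall back at the second.

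Some threshold ends were followed by another low probe. Where a second probe lay beyond the end, it was below -0.5 at 159 of 365 ends (43.6%) in the food restricted mean. In the control mean it was so at 176 of 365 (48.2%). Over all autosomal probes the shares were 38.6% and 40.4%, so nothing is read from these counts. A full set of 6 tiled probes lay beside 201 ends. In 39 of these flanks (19.4%) the median M was above 1 on both food restricted arrays, and in 84 (41.8%) it was below -0.5 on both. The share of autosomal stretches of 6 probes at these levels is not given, so nothing is read from these counts either. The flanks included enriched ones, like that of chromosome 16, and weakly enriched ones.

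A flank on chromosome 1 differed between the pools. It holds the 6 tiled probes from 140737567 to 140738561, directly before the block at 140738660. The median M of these probes was 0.48 and 0.56 on the food restricted arrays, against -1.03 and -0.88 on the control arrays, a difference of 1.51 on slide 1 and 1.44 on slide 2, or 2.78-fold. All 6 probes were higher in the food restricted pool on both slides. With each channel centred on its own median, the pools differed by 1.18 and 1.06 in the immunoprecipitated channel, and by 0.06 and -0.02 in the reference channel. Centring the ratio in place of the channels added 0.24 and 0.28 to every difference in M, as given further on. In the immunoprecipitated channel all 6 probes were well above background in the food restricted pool and 5 of 6 in the control pool.

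For each slide, D is the food restricted M less the control M. A region counted as higher or lower when both slides gave a D of 0.5 or more (1.41-fold) in the same direction. The mean D of the chromosome 1 flank was 1.47, and 3 of 49049 autosomal stretches of 6 probes had a mean D as large. Among all 201 flanks 16 were called higher in the food restricted pool and 1 lower, or 7.96% and 0.498%, where 4.69% and 0.33% of the stretches of 6 probes were. With the value table's assignment 7 flanks were higher and 1 lower (3.48% and 0.498%), against 1.97% and 0.722% of the stretches. This flank was singled out after its values were seen. Its D stayed positive in all 10 other ways of processing, between 0.12 and 1.56, and was lowest when the arrays were assigned to the pools by the deposited value table.

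Among the other flanks, that on chromosome 2 from 149656284 to 149657463 had a median M of -0.14 and -0.32 in the food restricted pool and -0.79 and -1.29 in the control pool, but its mean D was -0.34 with the value table's assignment. On chromosome 17 a flank from 52741174 to 52742112 was at -0.31 and -0.28 against -1.05 and -1.06, with a mean D of 0.012 in that assignment. Of its immunoprecipitated values 83.3% were well above background in the food restricted pool and 50% in the control pool. The block beside this flank also held 1 of the 4 block probes that exceeded 0.5 on both food restricted arrays, at 52741016, with M of 0.60 and 1.20 against -0.72 and -1.04. The immunoprecipitated signal of this probe was not well above background on the control arrays. The flank that was lower lay on chromosome 11 from 86919998 to 86921215, at -0.32 and 0.38 against 0.44 and 0.96, and its mean D was 0.61 in that assignment. Only 50% of its immunoprecipitated values were well above background in each pool.

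Over the blocks themselves, D had a median of 0.29 on slide 1 and 0.32 on slide 2. Both slides were above 0 in 305 of 371 blocks (82.2%), both were below 0 in 5, and the signs differed in 61. Over all stretches both slides were above 0 in 3979 of 10778 (36.9%). With the value table's assignment both differences were above 0 in 90 of 371 blocks (24.3%) and in 26.5% of stretches. In that assignment each pool holds an array that chose the blocks. The effect of the choice on D therefore differs from that in the main assignment, and the values of both cannot be compared directly. The control values in D also chose the blocks, so D is a description. With the rule applied to the control array of slide 1 and D taken from slide 2 alone the median was 0.32, and with the slides exchanged 0.30. With the rule applied to the food restricted arrays, which works in the opposite direction, it was 0.27. The 1475 autosomal stretches whose M over the 4 arrays lay between the 5th and 95th percentile of the blocks had a median D of 0.27, against 0.04 over all 10778 stretches. The blocks thus lay 0.034 above stretches of like M, or 0.043 above the 1182 of them that held no block probe. Matched on the food restricted M alone, 1693 stretches had a median D of 0.21, which was 0.094 below that of the blocks. With each channel centred on its own median, the pools differed in the blocks by 0.23 and 0.17 in the immunoprecipitated channel, and by 0.15 and 0.16 in the reference channel. At every probe of the array, D exceeds the immunoprecipitated less the reference difference by a constant, 0.24 on slide 1 and 0.28 on slide 2. This constant comes from centring the ratio in place of the channels. The stretches hold it too, and their median D was 0.04. With no centring the median D of the blocks was 0.39.

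These differences depended on the processing. The median D of the blocks was 0.021 with loess normalization, 0.045 with quantile normalization and 0.0076 with normexp background correction. It was -0.041 with the arrays assigned to the pools by the value table. The immunoprecipitated channel of the control pool was also the dimmer one over the whole array, as given above, and the part of this in the D of the blocks was not tested.

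Of the 371 blocks, 19 (5.12%) were called higher in the food restricted pool and 0 lower, and 0 passed the size with opposite signs. The number called higher was 1 with loess, 1 with quantile normalization, 0 with normexp and 0 with the value table's assignment, and 0 were called lower in each. In the immunoprecipitated channel, 3 of the 19 differed by 0.5 or more on both slides. Over all stretches 2.08% were called higher and 0.297% lower, or 1.35% and 0.408% with the value table's assignment. Since control M chose the blocks, nothing is read from the share. In these 19 blocks M still lay between -1.56 and -0.86 in the mean of the food restricted arrays, so each remained weakly enriched. Of the 19 blocks, 3 were dim in both pools, 8 in the control pool alone and 8 in neither. The block on chromosome 12 from 72114192 to 72117156, singled out after its values were seen, was called higher with a food restricted minus control difference of -0.45 and -0.35 in its immunoprecipitated signal. Across the 371 blocks, the D of both slides had a correlation of r = 0.22, over regions that share the 4 arrays.

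**Figure D5:**
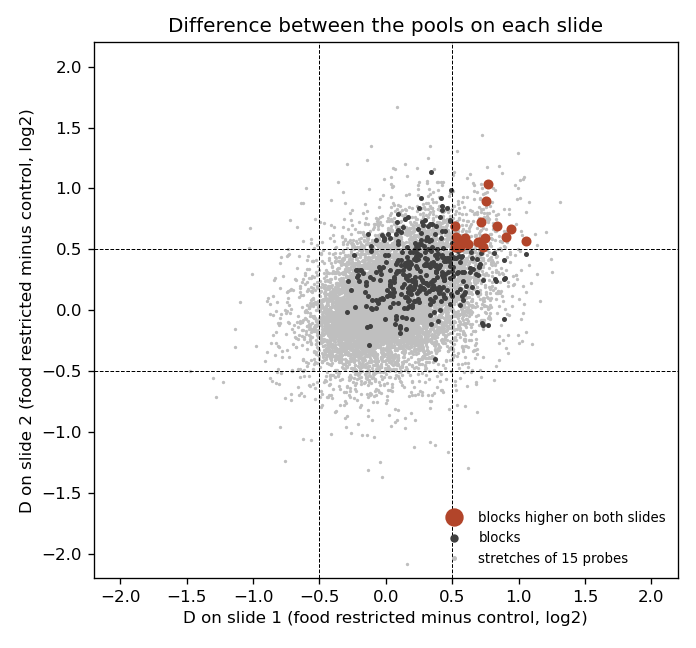
D on slide 2 against D on slide 1 (food restricted minus control, log2) for the 371 blocks (dark points), the 19 blocks called higher (red) and the 10778 autosomal stretches of 15 probes (grey), with dashed lines at -0.5 and 0.5. The blocks centre on 0.29 and 0.32, and none lies beyond -0.5 on both slides.

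The block with the largest D, ranked by the slide nearer 0, lay on chromosome 7 from 20214109 to 20217602 (15 probes). Its median M was -1.05 and -1.03 in the food restricted pool and -1.82 and -2.07 in the control pool (1.87-fold), and its immunoprecipitated signal differed by 0.61 and 0.28. In the control pool 53.3% of its immunoprecipitated values were well above background, and its mean D was -0.12 with the value table's assignment. It also held 1 of the 4 probes above 0.5 on both food restricted arrays. The block on chromosome 7 from 85721872 to 85724780 (17 probes) had -1.51 and -1.33 against -2.23 and -2.05, a D of 0.72 on both slides and 1.65-fold. Its immunoprecipitated signal differed by 0.71 and 0.52. The mean D of this block was 0.18 with the value table's assignment, 0.11 with loess and 0.19 with normexp. A block on chromosome 10 from 66998652 to 67001716 (16 probes) had -0.71 and -1.14 against -1.65 and -1.81, or 1.74-fold, with immunoprecipitated differences of 0.90 and 0.79, and a mean D of -0.30 with the value table's assignment. These 3 blocks were dim in neither pool.

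The other 2 of the 5 with the largest D were dim in the control pool. The block on chromosome 19 from 43463173 to 43465515 had -1.23 and -1.25 against -1.99 and -2.14. With the main processing it was at least 1.09-fold higher in the food restricted pool, but its mean D was -0.086 with the value table's assignment. The block on chromosome 4 from 115167724 to 115171664, at -1.32 and -1.18 against -2.15 and -1.87, was dim in both pools and has no fold. Its mean D was 0.21 with the value table's assignment. Of all 8 called blocks that were dim in the control pool alone, 2 had a bound above 1-fold.

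The 5 blocks with D below 0 on both slides were all small differences. The block on chromosome 7 from 93512955 to 93516209 had D of -0.14 on both slides, and its immunoprecipitated signal was well above background at 12.5% of values in the food restricted pool and 0% in the control pool. D was -0.12 and -0.29 at the long block on chromosome 19 from 12747434, -0.12 and -0.13 on chromosome 11 from 83472992 to 83475606, and -0.30 and -0.02 on chromosome 6 from 101326937 to 101330363. At the last of them, which spans 38304384 to 38307050 of chromosome 9, D was -0.0040 and -0.073. It and the blocks at 93512955 on chromosome 7 and at 12747434 on chromosome 19 were dim in both pools, so their D rests mostly on signals not well above background.

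Blocks occurred on all 19 autosomes. In proportion to the runs of 15 or more probes, chromosome 13 had the most, 22 in 391 runs or 5.63 per 100, and chromosome 16 the fewest, 6 in 322 runs or 1.86 per 100. Chromosome 7 had the most by number, 37 in 884 runs. The median food restricted M of the blocks lay between -1.53 and -1.30 on each autosome. The megabases that held blocks had a median of 248 autosomal probes, against 294 for stretches, and 29 blocks (7.82%) lay within 5 Mb of the last probe of their chromosome, against 6.04% of stretches.

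Another block lay within 100 kb of 35 of the 371 blocks (9.43%) and within 1000 kb of 148 (39.9%). The largest number in 1 megabase was 5, on chromosome 15 between 102000001 and 103000000, described here because of this number. In these 5 blocks the food restricted M ran from -1.62 to -1.20 on slide 1 and from -1.72 to -1.22 on slide 2, against -1.72 to -1.49 and -2.06 to -1.54 in the control pool. The block from 102818870 to 102822194 was called higher, with D of 0.52 and 0.69, and was dim in the control pool. The blocks from 102763964 to 102767270 and from 102803940 to 102807223, on the same chromosome, had D of -0.11 on slide 1 and of 0.02 and 0.53 on slide 2. Another 9 megabases held 3 blocks.

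Within blocks, single probes had their own level. The deviation of a probe from the median of its block correlated at r = 0.53 between the food restricted arrays and at r = 0.39 between the control arrays, over 6492 probes of the same array design. The control mean chose these probes, which bounds the control values alone, so both correlations cannot be compared directly. Between the pools the correlation was 0.45 within each slide, and 0.37 and 0.36 across the slides. Block medians, which cover a narrow range of M, correlated at r = 0.57 between the food restricted arrays, where the medians of all stretches reached r = 0.98.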

How the data were processed

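The scanner files come from Agilent Feature Extraction, whose version the submitters' processing notes give as 10.5.1.1. They place probes on mm9, per the file headers. The deposited processed intensity of each channel had, per the file headers, its background subtracted and a linear dye factor applied. Of 420288 spots, 4474 control spots and 65 outliers were left out, and keeping the outliers also gave 371 blocks. The value table deposited by the authors holds log2 ratios of red over green. At 100% of probes (tolerance 0.001) its columns for the food restricted array of slide 1 and the control array of slide 2 equal each other's scanner files. The table's assignment was therefore run as an alternative. Both columns had the opposite sign to the scanner file of the same title (r = -0.91), so they do not match the dyes of their titles. With those dyes, M from the scanner files correlated between arrays at r = 0.96 to 0.98 over stretches.

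Each sample title names the dye of the immunoprecipitated DNA, which set the direction of M before centring. The value of a block was the median over its probes. Named blocks are the 10 longest, the 5 lowest and highest in food restricted M, the 5 largest and smallest D, the shortest and the one with most probes; others were named after their values were seen. The members and rules were chosen with earlier results of these data known. The block search was tested on simulated data. The number of arrays limits the precision. Python 3.11.15, pandas 2.3.3, R 4.3.3 and limma 3.58.1 (normexp) were used.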

Additional observations from a re-analysis of the deposited data

How the results depend on the processing

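The main values were 371 blocks, a median food restricted M of -1.39, a median D of 0.31, 19 blocks higher and 0 lower; 0 were lower in each alternative. No cause of a shift was tested except where one is given. Under other processing the values below give the number of blocks found anew and, over the 371 original blocks, M, D and the blocks called higher. Centring on the densest value gave 1 block, -0.48, 0.10 and 3. No centring gave 631, -1.54, 0.39 and 43. Loess gave 174, -1.06, 0.021 and 1. Quantile normalization gave M of -1.52, D of 0.045 and 1 higher. Normexp gave 77, -0.73, 0.0076 and 0. With the arrays assigned to the pools by the value table, M was -1.56, D turned to -0.041 and 0 were higher. In that assignment slide and dye go with the pool, and each pool holds an array that chose the blocks. Means over probes gave M of -1.38 and D of 0.34, immunoprecipitated probes above background alone -1.09 and 0.28 in 305 blocks, and the immunoprecipitated channel alone D of 0.21. D across the slides gave the same mean by construction.

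Under other rules the values are for the blocks each finds. A threshold of -0.25 gave 649 blocks, M of -1.32 and D of 0.28, and -1 gave 68, -1.58, 0.35 and 6 higher. A minimum of 10 probes gave 1881, M of -1.35 and 127 higher, and 20 gave 68, -1.45 and 1. Gaps of 300 bp gave 104, -1.41, 0.34 and 6. Both control arrays below -0.5 gave 157, -1.46, 0.34 and 8. The rule on the food restricted arrays gave 167, -1.50, 0.27 and 8, and on all 4 arrays M of -1.42 and D of 0.28. The rule on 1 control array with D from the other slide gave M of -1.41 and -1.37, with 61 higher each; a call there needs 1 slide. Leaving out 1 array gave 308 to 371 blocks, M from -1.40 to -1.39, D from 0.29 to 0.33 and 60 to 82 higher. A call there also needs only 1 slide. Chosen after seeing the data, the 142 blocks dim in neither pool had M of -1.32 and 8 higher, and D less that of stretches of like M was 0.034, or 0.043 without stretches that hold block probes. Matched on food restricted M, it was 0.094 and 0.13.

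Across the 28 named blocks, 4 values of called blocks changed sign: with normexp on chromosome 4 (-0.065), and with the value table's assignment at 20214109 on chromosome 7 (-0.12), on chromosome 19 (-0.086) and on chromosome 10 (-0.30). That assignment, chosen after seeing the data for the flanks, also turned the flanks on chromosomes 2 (-0.34) and 11 (0.61). No paired analysis was possible because each pool is 1 sample; D was already taken within a slide.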

Other observations

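The X chromosome was outside the rule. The same search there gave 8 blocks in 487 runs of 15 or more probes (1.64%), where 3.72% of autosomal runs held a block. The median M of the X blocks lay between -1.53 and -1.08 on slide 1 and between -1.51 and -0.75 on slide 2 in the food restricted pool, against -1.79 to -1.34 and -1.82 to -1.11 in the control pool. The longest, from 69627796 to 69631352 with 21 probes, had -1.18 and -1.25 against -1.35 and -1.82.

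Besides the probes on chromosomes 7 and 17, another 2 block probes were above 0.5 on both food restricted arrays. The probe on chromosome 4 from 70196577 to 70196621 had M of 0.73 and 0.57, against -0.95 and -0.32 in the control pool, with an immunoprecipitated signal of 1.93 and 1.62 against -0.34 and 0.43 (log2, centred). The probe on chromosome 7 from 113885094 to 113885141 had 0.50 and 1.05 against -1.06 and -0.67. Both were well above background on all 4 arrays, and each rests on 1 spot per array.

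The mirror of the rule, with control M above 0.5 at every probe, gave 799 blocks with a median food restricted M of 2.66 and 2.68 on the slides, against 2.62 and 2.53 in the control pool. Their reference signal differed between the pools by -0.27 and -0.30, whereas that of the weakly enriched blocks differed by 0.15 and 0.16.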
